A study of Homo sapiens with 18 samples.

Results

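The plasminogen activator system was examined in RNA sequencing of 3 breast lines of the MCF10 series through 7 genes, which were 7 of the 35933 genes with values. They were chosen by symbol and comprised the activators PLAU (urokinase) and PLAT (tissue plasminogen activator), the urokinase receptor PLAUR, and the serpins SERPINE2, SERPINB2, SERPINB5 and SERPINB7. The choice was made with earlier results of these data known. Counts of these genes set against all genes below are therefore descriptions and not independent evidence. MCF10A is a spontaneously immortalized, non-tumorigenic line of breast epithelium with basal features. MCF10AT1 carries a mutated HRas that was put into MCF10A cells. MCF10CA1h arose from MCF10AT1 grown as serial xenografts in mice. Each line was measured as a negative control CRISPR line (Neg) and as a line labelled METTL3 knockdown (KD), in which Cas9 was directed to METTL3, the catalytic subunit of the enzyme that writes N6-methyladenosine on RNA. The 6 groups had 3 libraries each, named a, b and c, which made 18 libraries. All cells passed through CRISPR transfection, sorting for mCherry and growth from single cells. Each group, Neg or KD, was therefore a clonal line, so that neither the KD label nor the line can be told apart from the clone. Nothing in the labels says that the letters were separate cultures, so a p-value measures only the spread between these libraries, which may be technical.

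Plasminogen is a circulating proenzyme that urokinase or tissue plasminogen activator cuts into plasmin, a protease that degrades fibrin and, directly and through other proteases, extracellular matrix. Urokinase works on the cell surface when it is bound to its receptor, a protein held to the membrane by a lipid anchor. Serpins act as bait for such proteases: SERPINE2 (protease nexin-1) inhibits urokinase and thrombin among others, and SERPINB2 (PAI-2) inhibits urokinase and tissue plasminogen activator. SERPINB5 (maspin) is a clade B serpin of mammary epithelium that was first described as a tumor suppressor and does not act as a classical protease inhibitor, and SERPINB7 (megsin) is a clade B serpin known from kidney and skin.

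The deposited normalized counts summed to between 21347352 and 31681834 per library. How many reads stand behind a value is unknown, and counting error could not be computed. METTL3 RNA itself was not shown to be lower in the libraries labelled KD of MCF10A (log2 fold change 0.33, adjusted p = 0.618 by limma) or MCF10AT1 (-0.17, adjusted p = 0.707), and was lower in those of MCF10CA1h (-0.49, adjusted p = 0.0234), so KD is used below as a label. The study checked the knockdown by Western blotting of METTL3 protein and by real-time PCR of METTL3 mRNA. It also measured N6-methyladenosine in these lines. None of these assays is analysed here. The Neg library c of MCF10AT1 stood apart. Its profile correlated with the other libraries of its own group at a mean r of 0.903 across 15897 genes and with library b of the MCF10A KD group at 0.941. Calls that rest on MCF10AT1 Neg are given with and without it. Library b of that group correlated with its own group at a mean r of 0.909 and with no library of another group above 0.866. It had the fewest genes above 0 (20121) and the largest sum (31681834).

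The Neg clones of the 3 lines were compared first, before any comparison with KD. Of the 7 genes, 6 were lower in MCF10AT1 Neg than in MCF10A Neg and none higher, where 28.1% of all 15652 tested genes, 13.3% higher and 14.7% lower, passed the threshold of an adjusted p under 0.05 (limma on log2 values with a pseudocount of 1, Benjamini-Hochberg adjustment over all tested genes). Their median log2 difference was -1.39, against -0.01 over all genes. Between MCF10CA1h Neg and MCF10A Neg, 5 of the 7 passed, 4 lower and 1 higher, against 37.8% of all genes (18.8% lower and 19.0% higher). The step from MCF10AT1 Neg to MCF10CA1h Neg had 3 of 7 past the threshold, all higher, against 21.8% of all genes (11.0% higher and 10.8% lower). The shares of all genes depended on single libraries. Without MCF10AT1 Neg library c, the same 6 of 7 were lower than in MCF10A against 52.1% of all genes, and 4 of 7 were higher in MCF10CA1h than in MCF10AT1 against 35.8%. With other single libraries left out the first share fell to as little as 10.6% (without MCF10A Neg library b, with 5 of 7) and the last to 10.2% (without MCF10CA1h Neg library b, with 3 of 7), and without MCF10CA1h Neg library a 1 of 7 was called in the last against 10.8%. These 3 comparisons share their groups and are not independent of each other. In bulk RNA, fewer cells that express a gene and less RNA of it per cell cannot be told apart.

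**Figure D1:**
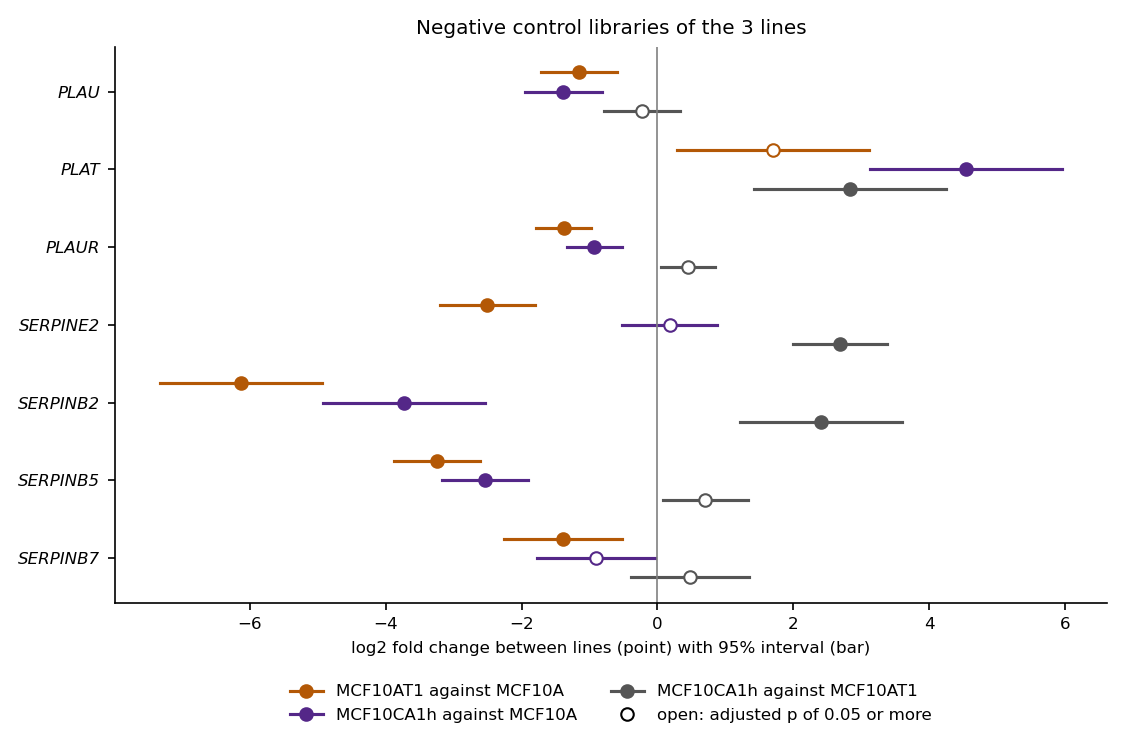
Differences in RNA level of the 7 genes between the Neg libraries of the 3 lines, as log2 fold change (x axis; point) with its 95% interval (bar) from limma, 3 libraries per line. SERPINB2 had the largest difference of the 7, -6.13 between MCF10AT1 and MCF10A, and PLAT lay to the right of 0 in every comparison, with 4.54 between MCF10CA1h and MCF10A.

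Among the activators, PLAU lies on chromosome 10 of hg38 from 73909177 to 73917496 on the plus strand. Its normalized counts in Neg libraries a, b and c were 3674, 3317 and 5615 in MCF10A, 1801, 1475 and 2324 in MCF10AT1, and 1812, 1435 and 1483 in MCF10CA1h. Every MCF10A library was above every library of the other lines, while MCF10AT1 and MCF10CA1h overlapped. PLAU was 2.23-fold lower in MCF10AT1 than in MCF10A (log2 fold change -1.16, standard error or SE 0.25, adjusted p = 0.0117) and 2.61-fold lower in MCF10CA1h (-1.38, SE 0.25, adjusted p = 0.00301). Without MCF10AT1 library c the first value was -1.33 (adjusted p = 0.00243). The difference between the last 2 lines was -0.23 with a 95% interval from -0.79 to 0.33.

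PLAT, on chromosome 8 from 42174718 to 42207709 on the minus strand, went the other way. It had 438, 126 and 65.1 in MCF10A Neg, 670, 254 and 743 in MCF10AT1 Neg and 4150, 3031 and 3690 in MCF10CA1h Neg. The MCF10CA1h libraries stood above all others, and the spread within MCF10A was wide, with library a at 438 and c at 65.1. PLAT was 23.3-fold higher in MCF10CA1h than in MCF10A (log2 fold change 4.54, SE 0.63, adjusted p = 9.1e-04) and 7.15-fold higher than in MCF10AT1 (2.84, SE 0.63, adjusted p = 0.0126), the latter at 3.12 without MCF10AT1 library c (adjusted p = 0.00847). Between MCF10AT1 and MCF10A, whose values overlapped, the log2 difference of 1.70 did not pass (adjusted p = 0.0684). It passed without MCF10A library a (2.45, adjusted p = 0.00838) and without MCF10AT1 library b (2.19, adjusted p = 0.0431).

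The receptor PLAUR, on chromosome 19 from 43646095 to 43670547 on the minus strand, had the narrowest spread of the 7 relative to its mean within MCF10A Neg, where its mean was 4008 ± 434 (SD, n = 3) and its libraries held 3748, 3767 and 4509. MCF10AT1 Neg held 1402, 1835 and 1404, and MCF10CA1h Neg 2202, 1933 and 2171. The 3 lines did not overlap. PLAUR was lower than in MCF10A by 2.60-fold in MCF10AT1 (log2 fold change -1.38, SE 0.18, adjusted p = 0.00138) and by 1.90-fold in MCF10CA1h (-0.93, SE 0.18, adjusted p = 0.0041). Without MCF10AT1 library c the first value was -1.31 (adjusted p = 8.5e-04). Between MCF10CA1h and MCF10AT1 the difference of 0.45 did not pass (adjusted p = 0.103).

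SERPINE2, on chromosome 2 from 223975045 to 224039318 on the minus strand, was low in MCF10AT1 Neg. Its values were 3903, 5864 and 7468 in MCF10A Neg, 765, 842 and 1451 in MCF10AT1 Neg and 6559, 7525 and 5071 in MCF10CA1h Neg. All MCF10AT1 libraries were below all others, and MCF10A and MCF10CA1h overlapped. SERPINE2 was 5.67-fold lower in MCF10AT1 than in MCF10A (log2 fold change -2.50, SE 0.31, adjusted p = 0.00114) and 6.44-fold higher in MCF10CA1h than in MCF10AT1 (2.69, SE 0.31, adjusted p = 5.6e-04). Without MCF10AT1 library c these values were -2.79 (adjusted p = 3.0e-04) and 2.97 (adjusted p = 1.8e-04). Between MCF10CA1h and MCF10A the difference was 0.18 with a 95% interval from -0.51 to 0.88.

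The 3 clade B serpins lie in the serpin cluster of chromosome 18, all on the plus strand: SERPINB5 from 63476958 to 63505085, SERPINB7 from 63752935 to 63805376 and SERPINB2 from 63871692 to 63903888. SERPINB2 had 2094, 3648 and 1445 in MCF10A Neg, 19.4, 21.2 and 70.4 in MCF10AT1 Neg and 253, 158 and 117 in MCF10CA1h Neg. The 3 lines did not overlap, and library c of MCF10AT1 was far above the other libraries of its group. SERPINB2 was 70.0-fold lower in MCF10AT1 than in MCF10A (log2 fold change -6.13, SE 0.53, adjusted p = 3.3e-04), and the log2 fold change was -6.71 without library c. It was 13.2-fold lower in MCF10CA1h than in MCF10A (-3.73, SE 0.53, adjusted p = 0.00101) and 5.29-fold higher in MCF10CA1h than in MCF10AT1 (2.40, SE 0.53, adjusted p = 0.0124). The last value was 2.99 without MCF10AT1 library c (adjusted p = 0.00122), and its call was lost without MCF10AT1 library a (adjusted p = 0.0514) or MCF10CA1h library a (adjusted p = 0.0569).

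SERPINB5 held 33559, 51420 and 60647 in MCF10A Neg, 4903, 3683 and 6855 in MCF10AT1 Neg and 8600, 8880 and 7051 in MCF10CA1h Neg. The 3 lines did not overlap, and the lowest MCF10A library was far above the highest of the others. SERPINB5 was 9.45-fold lower in MCF10AT1 than in MCF10A (log2 fold change -3.24, SE 0.28, adjusted p = 3.3e-04) and 5.79-fold lower in MCF10CA1h (-2.53, SE 0.28, adjusted p = 3.3e-04). The first value was -3.47 without MCF10AT1 library c (adjusted p = 1.1e-04). The difference of 0.71 between MCF10CA1h and MCF10AT1 did not pass (adjusted p = 0.103), and passed without MCF10AT1 library c (0.94, adjusted p = 0.0201).

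SERPINB7 had low values, with 51.5, 73.0 and 33.6 in MCF10A Neg, 17.1, 17.0 and 22.0 in MCF10AT1 Neg and 31.1, 26.5 and 22.2 in MCF10CA1h Neg. MCF10A lay above the other lines, and the lowest MCF10CA1h library was close to the highest MCF10AT1 library. SERPINB7 was 2.62-fold lower in MCF10AT1 than in MCF10A (log2 fold change -1.39, SE 0.39, adjusted p = 0.0285). This call was lost without MCF10A library a or b, or MCF10AT1 library a or b, where the adjusted p lay between 0.0509 and 0.12, and held without MCF10AT1 library c (-1.51, adjusted p = 0.0178). Between MCF10CA1h and MCF10A the difference of -0.90 did not pass (adjusted p = 0.093).

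Per length of the canonical transcript, which allows levels of different genes to be set side by side, SERPINB5 was the highest of the 7 in every Neg group, with a mean of 18771 ± 5326 normalized counts per kb (SD, n = 3) in MCF10A, 1990 ± 619 in MCF10AT1 and 3162 ± 381 in MCF10CA1h. SERPINB7 was the lowest in every Neg group, at 24.0, 8.52 and 12.1 per kb. PLAUR stood above PLAU per kb in each line, at 2930 ± 317 against 1793 ± 528 in MCF10A. In MCF10A PLAT was the second lowest at 68.5 ± 65.3 per kb, and in MCF10CA1h it reached 1184 ± 184, above PLAU at 673 ± 87.6.

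The 3 clade B genes share a cluster, and their KD differences had a common sign within each line, though not all of these passed. The other serpins of that cluster that were tested (4, 1 and 4) had different medians. These were log2 fold changes of -0.03, 0.18 and -0.17 in MCF10A, MCF10AT1 and MCF10CA1h KD. The part of the shared position in the differences was not tested. The 250 bases before the transcription start are shown for PLAUR and the 3 clade B serpins, the windows searched that held the AP-1 letters described below. They come from RefSeq on GRCh38.p14 and are written 5′ to 3′ on the gene's strand. Capitals mark the letters TGANTCA, the binding motif of AP-1 (the FOS and JUN factors), and CAGGTG or CACCTG, the E-box form bound by SNAI and ZEB factors. Both were searched on both strands and do not overlap each other here. The windows are chr19:43670170-43670419 (minus strand) for PLAUR, chr18:63887455-63887704 for SERPINB2, chr18:63476708-63476957 for SERPINB5 and chr18:63775168-63775417 for SERPINB7 (plus strand).
PLAUR: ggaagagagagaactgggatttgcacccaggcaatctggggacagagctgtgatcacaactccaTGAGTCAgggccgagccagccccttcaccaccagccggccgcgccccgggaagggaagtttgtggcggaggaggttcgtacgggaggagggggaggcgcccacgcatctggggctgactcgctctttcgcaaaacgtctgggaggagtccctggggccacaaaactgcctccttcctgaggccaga
SERPINB2: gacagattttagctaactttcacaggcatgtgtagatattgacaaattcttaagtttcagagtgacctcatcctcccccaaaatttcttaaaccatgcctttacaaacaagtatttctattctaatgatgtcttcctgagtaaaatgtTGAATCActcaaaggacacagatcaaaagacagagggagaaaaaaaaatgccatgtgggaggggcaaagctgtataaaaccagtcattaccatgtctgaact
SERPINB5: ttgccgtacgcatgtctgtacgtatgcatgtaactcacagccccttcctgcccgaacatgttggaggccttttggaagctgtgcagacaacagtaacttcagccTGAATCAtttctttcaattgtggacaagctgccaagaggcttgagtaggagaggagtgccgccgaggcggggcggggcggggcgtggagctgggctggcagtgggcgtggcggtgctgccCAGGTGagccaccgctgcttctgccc
SERPINB7: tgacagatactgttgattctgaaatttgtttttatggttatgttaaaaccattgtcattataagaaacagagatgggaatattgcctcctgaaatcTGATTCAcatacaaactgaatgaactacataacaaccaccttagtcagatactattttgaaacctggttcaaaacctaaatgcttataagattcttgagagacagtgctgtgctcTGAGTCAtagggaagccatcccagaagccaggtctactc

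The AP-1 letters began 186 bases before the start in PLAUR, 102 in SERPINB2, 146 in SERPINB5, and 154 and 39 in SERPINB7, and 6.59% of 34788 windows of the same length held them. They were in neither the PLAU nor the SERPINE2 window, which says only that these letters are not there. The E-box letters were found in SERPINB5, 26 bases before the start, and in PLAU, 233 bases before it, and in 17.5% of all windows. The SERPINB2 and SERPINB7 windows held no CG dinucleotide, while those of PLAUR and SERPINB5 each held 13, against a median of 11. The RefSeq start of SERPINE2 lies 646 bases from the start of its canonical transcript in GENCODE, so its window may not be the one in use. The PLAT window was not used here. GGACT, a frequent form of the sequence at which N6-methyladenosine is written, occurred 5 times in the canonical PLAU transcript (2.13 per kb, reached by 7.78% of 20001 transcripts), 4 times in PLAT, once each in PLAUR, SERPINB5 and SERPINB7, and in neither SERPINE2 nor SERPINB2. The median of all transcripts was 0.93 per kb. A match in letters does not show that a site is bound or methylated.

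**Figure D2:**
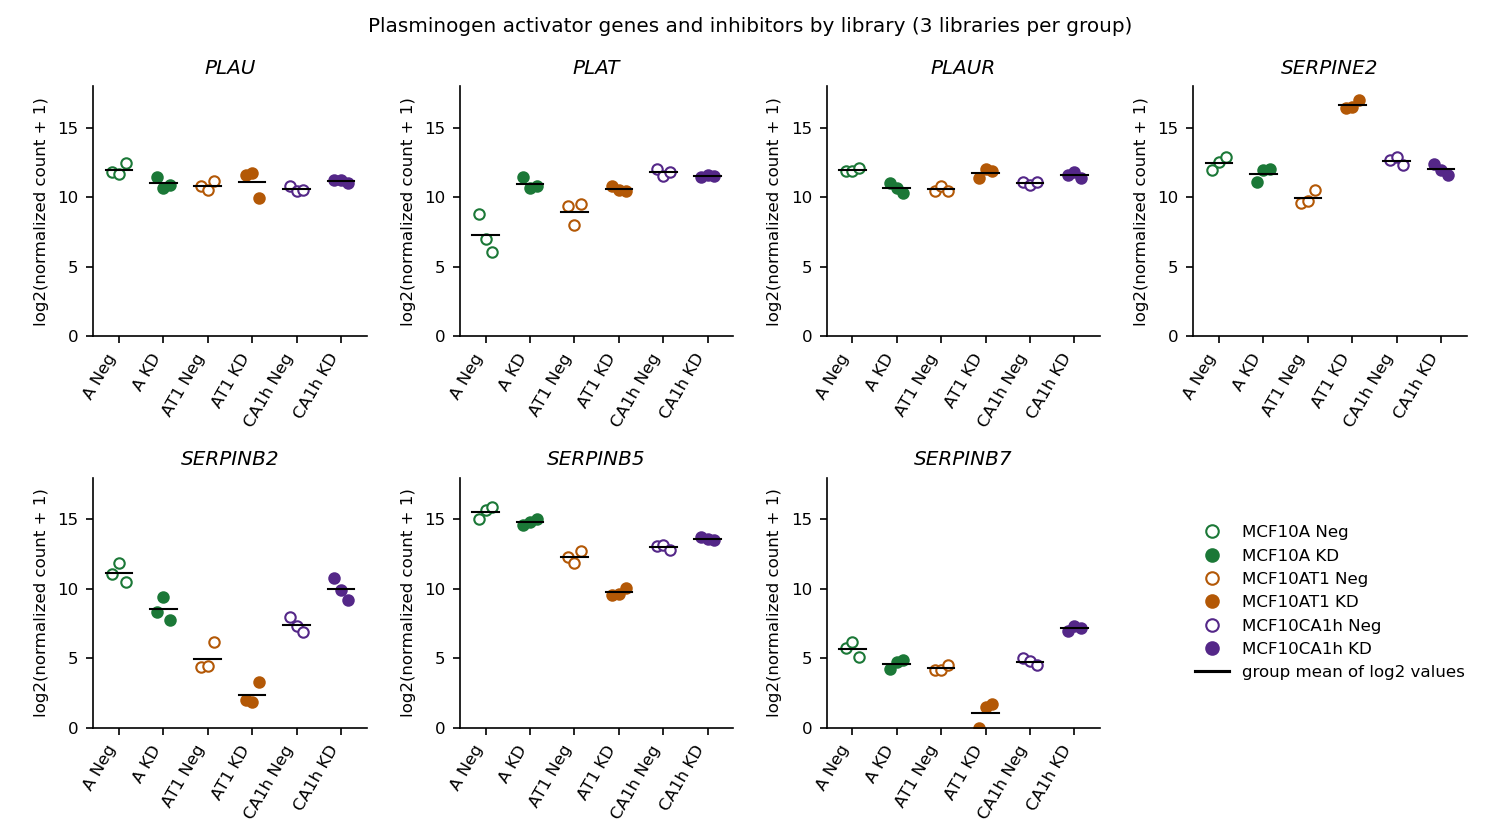
Level of each of the 7 genes in each of the 18 libraries, as log2 of the normalized count plus 1 (y axis), with open points for Neg, filled points for KD and a bar for the mean of the log2 values of each group of 3. SERPINE2 in MCF10AT1 KD stands at 87228 to 130604 normalized counts, above every other library, and SERPINB2, SERPINB5 and SERPINB7 lie lower in KD than in Neg on average in MCF10A and MCF10AT1 and higher in MCF10CA1h.

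In MCF10A, PLAT was higher and PLAUR and SERPINB2 were lower in the libraries labelled KD than in Neg. These were 3 of the 7 genes, where 2.65% of the 15416 tested genes passed, 1.16% higher and 1.49% lower. At an unadjusted p under 0.05 there were 7 of 7, against 18.4% of all genes. Groups did not overlap for 5 of the 7, against 23.9% of all genes. The median log2 fold change of the 7 was that of PLAU, -0.997, against 0.00 over all genes. The letters were taken as pairing the libraries of this line from correlations in these same data, which no label states. With the letter as a block 6 of 7 passed, 1 higher and 5 lower, against 7.6% of all genes. The count was 0 without Neg library b (against 0.558% of all genes) or KD library c (0.337%). It was 1 without KD library a (0.468%) or b (0.913%). With single libraries left out the share of all genes ran from 0.337% (without KD library c) to 9.2% (without Neg library a, with 4 of 7).

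PLAT in MCF10A had 438, 126 and 65.1 in Neg and 2871, 1635 and 1768 in KD. Every KD library was above every Neg library, the nearest pair being 438 and 1635. The log2 fold change was 3.71 (SE 0.60, adjusted p = 0.0228), or 13.1-fold. With single libraries left out it lay between 3.10 and 4.47 and its adjusted p between 0.00409 and 0.0996.

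PLAU held 3674, 3317 and 5615 in MCF10A Neg and 2757, 1627 and 1915 in KD, so that all KD libraries were below all Neg libraries. The log2 fold change of -0.997 (SE 0.26) did not pass (adjusted p = 0.0877), and did with the block (adjusted p = 0.0277). Its receptor PLAUR had 3748, 3767 and 4509 in Neg and 2062, 1622 and 1291 in KD, again without overlap. PLAUR was 2.45-fold lower (log2 fold change -1.29, SE 0.19, adjusted p = 0.0172). The call was lost without Neg library b or KD library b or c, where the adjusted p was at most 0.0713.

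All 4 serpins had a log2 fold change below 0 in MCF10A, and 1 passed. SERPINB2 had 2094, 3648 and 1445 in Neg and 329, 690 and 216 in KD, with every KD library below every Neg library. It was 6.07-fold lower (log2 fold change -2.60, SE 0.46, adjusted p = 0.0289), and the adjusted p lay between 0.0229 and 0.115 with single libraries left out. SERPINE2 held 3903, 5864 and 7468 in Neg and 2165, 3913 and 4198 in KD, where the groups overlapped and the log2 fold change was -0.75 (adjusted p = 0.24, with the block 0.0137). SERPINB5 held 33559, 51420 and 60647 in Neg and 24195, 28204 and 33658 in KD, with the highest KD library just above the lowest Neg library (log2 fold change -0.73, adjusted p = 0.17, with the block 0.0231). SERPINB7 had 51.5, 73.0 and 33.6 against 17.5, 26.2 and 28.1, without overlap (log2 fold change -1.07, adjusted p = 0.209, with the block 0.167).

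In MCF10AT1, SERPINE2, PLAT and PLAUR were higher and SERPINB5 and SERPINB7 lower in KD. These were 5 of the 7 genes, against 13.0% of 16050 tested genes (7.07% higher and 5.96% lower). At an unadjusted p under 0.05 there were 6 of 7, against 27.6%. Groups did not overlap for 6 of the 7, against 32.8% of all genes. SERPINB7 and SERPINB2 reached the minimum mean of 10 only through Neg (18.7 and 37.0, against 1.41 and 4.81 in KD). Their places in these counts therefore depended on the group where they were high. The letters were also taken as pairing these libraries, on the same ground, and with the block 6 of 7 passed, against 24.5% of all genes. Without Neg library c, which stood apart, 4 of the 6 that were tested passed, against 11.0%, and SERPINB7 was below the minimum. The count was 2 without Neg library a (of 6 tested, against 7.0% of all genes) or KD library b (of 7, against 6.35%). It was 3 without KD library a (against 8.52%) or c (against 10.9%). Without the intensity trend 4 passed, 1 higher and 3 lower, against 12.3% of all genes. PLAT (adjusted p = 0.0733) and PLAUR (adjusted p = 0.0592) were lost there and SERPINB2 was gained (adjusted p = 0.0417).

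SERPINE2 had the largest change of the 7 in any line. It held 765, 842 and 1451 in MCF10AT1 Neg and 87228, 91485 and 130604 in KD. The lowest KD library was far above the highest Neg library, and above every SERPINE2 value of the other lines, of which the highest was 7525. SERPINE2 was 104-fold higher (log2 fold change 6.69, SE 0.33, adjusted p = 2.5e-05), and between 6.51 and 6.98 on the log2 scale with any single library left out. Per length, it was the highest of the 7 in this group, at 46319 ± 10740 normalized counts per kb (SD, n = 3), where SERPINB5 had 338 ± 65.9.

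PLAT had 670, 254 and 743 in MCF10AT1 Neg and 1817, 1458 and 1429 in KD, with all KD libraries above all Neg libraries. It was 3.10-fold higher (log2 fold change 1.63, SE 0.43, adjusted p = 0.0399). The call was lost with libraries scaled to equal sums (1.47, adjusted p = 0.116) and in 4 of the 6 fits with 1 library left out, and it held without Neg library c (1.92, adjusted p = 0.0275). PLAU held 1801, 1475 and 2324 in Neg and 3102, 3481 and 985 in KD. KD library c lay below all Neg libraries and KD libraries a and b above them, so that no difference was shown (log2 fold change 0.26, 95% interval -0.84 to 1.37, adjusted p = 0.766). Its sign turned without KD library b (-0.07).

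PLAUR held 1402, 1835 and 1404 in MCF10AT1 Neg and 2707, 4096 and 3792 in KD. The groups did not overlap, and KD libraries b and c were close to the level of MCF10A Neg. PLAUR was 2.26-fold higher (log2 fold change 1.18, SE 0.28, adjusted p = 0.0263). Without Neg library c the value was 1.12 (adjusted p = 0.0489), and the call was lost without Neg library a or KD library b or c (adjusted p at most 0.157).

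The clade B serpins were low in MCF10AT1 KD. SERPINB5 had 4903, 3683 and 6855 in Neg and 756, 797 and 1070 in KD, without overlap. It was 5.76-fold lower (log2 fold change -2.53, SE 0.31, adjusted p = 0.0013) and passed with any single library left out. SERPINB7 had 17.1, 17.0 and 22.0 in Neg and 0, 1.89 and 2.35 in KD, libraries in which the most frequent low value was 1.14, 0.98 and 1.22. The value of -3.20 on the log2 scale (SE 0.78, adjusted p = 0.031) depends on the pseudocount (-1.90 with 5 in place of 1). The call was lost without the filter on low values (adjusted p = 0.0511). The mean of SERPINB7 lay so close to the minimum of 10 that it was tested in only 3 of the 6 fits with 1 library left out and passed in 1 of them. SERPINB2 had 19.4, 21.2 and 70.4 in Neg and 2.98, 2.59 and 8.86 in KD. All KD libraries were below all Neg libraries, and library c was the highest in each group. The log2 fold change of -2.61 (SE 0.77) did not pass (adjusted p = 0.0609), passed with the block (adjusted p = 0.0213), and was -2.03 without Neg library c (adjusted p = 0.179).

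Markers of other states of the cells moved with these genes in MCF10AT1. Of the fibroblast and mesenchymal markers, 3 of 7 tested were higher in KD and none lower, against 13.0% of all genes (7.07% higher and 5.96% lower). These 3 passed without Neg library c as well. They were VIM (log2 fold change 4.09) and, from Neg means of 1.53 and 0.75, THY1 (9.61) and COL3A1 (8.95). THY1 and COL3A1 reached the minimum mean of 10 only through KD, so they could be tested only because they were high there. The summed value of the list was 3795 to 5109 in Neg, where COL1A2 and LUM were listed at 0 in all 3 libraries, and 62231 to 74520 in KD. Of the 10 epithelial markers, 5 were lower in KD and none higher, among them CDH1 (E-cadherin, log2 fold change -6.79), EPCAM (-5.16) and KRT17 (-4.47). Without Neg library c 4 were lower, these 3 among them, and TP63 was higher. The values of the list overlapped at 133963 to 215836 in Neg and 107100 to 202687 in KD. None of the 3 blood cell markers tested passed (1 at an unadjusted p under 0.05), with sums of 780 to 1541 in Neg and 1982 to 2978 in KD. The 1 endothelial marker tested did not pass either (0 at an unadjusted p under 0.05), with sums of 233 to 867 and 382 to 644. The part of these markers in the differences of the plasminogen genes was not tested.

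In MCF10CA1h, 5 of the 7 genes were higher in KD and none passed in the other direction, against 12.8% of 15127 tested genes that passed (7.91% higher and 4.85% lower). At an unadjusted p under 0.05 there were 7 of 7, against 28.0%. The 5 were PLAU, PLAUR and the 3 clade B serpins. Groups did not overlap for the same 5, against 32.7% of all genes. The differences of PLAU, PLAUR and SERPINB5 were at most 1.53-fold, and these 3 calls were lost when all 18 libraries were fitted together. In that fit 2 of 7 passed, and the share of all genes fell as well, from 12.8% to 1.56%.

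PLAU had 1812, 1435 and 1483 in MCF10CA1h Neg and 2473, 2443 and 2101 in KD, with all KD libraries above all Neg libraries. It was 1.49-fold higher (log2 fold change 0.57, SE 0.12, adjusted p = 0.0116; 0.709 in the joint fit). PLAUR held 2202, 1933 and 2171 in Neg and 3173, 3694 and 2646 in KD, also without overlap, and was 1.5-fold higher (0.58, SE 0.13, adjusted p = 0.0144, and 0.239 in the joint fit). Without KD library b its adjusted p was 0.0525. PLAT, which was high in this line to begin with, had 4150, 3031 and 3690 in Neg and 2760, 3123 and 3027 in KD. These overlapped and the log2 fold change was -0.28 (95% interval -0.55 to -0.01, adjusted p = 0.168).

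SERPINB2 had 253, 158 and 117 in MCF10CA1h Neg and 1744, 964 and 597 in KD. The lowest KD library was above the highest Neg library, and in each group library a was highest and c lowest. SERPINB2 was 5.95-fold higher (log2 fold change 2.57, SE 0.37, adjusted p = 0.00176) and passed with any single library left out. SERPINB7 held 31.1, 26.5 and 22.2 in Neg and 125, 162 and 142 in KD, 5.23-fold higher without overlap (2.39, SE 0.25, adjusted p = 2.6e-04). Its KD libraries exceeded those of every other group.

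SERPINB5 had 8600, 8880 and 7051 in MCF10CA1h Neg and 13497, 12395 and 11482 in KD, 1.53-fold higher without overlap (log2 fold change 0.61, SE 0.11, adjusted p = 0.00573; 0.336 in the joint fit). SERPINE2 held 6559, 7525 and 5071 in Neg and 5450, 4073 and 3157 in KD. The groups overlapped in 1 KD library, and the log2 fold change of -0.61 (SE 0.19) did not pass (adjusted p = 0.0668). It passed without Neg library c (-0.77, adjusted p = 0.0403) and without KD library a (-0.81, adjusted p = 0.018).

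**Figure D3:**
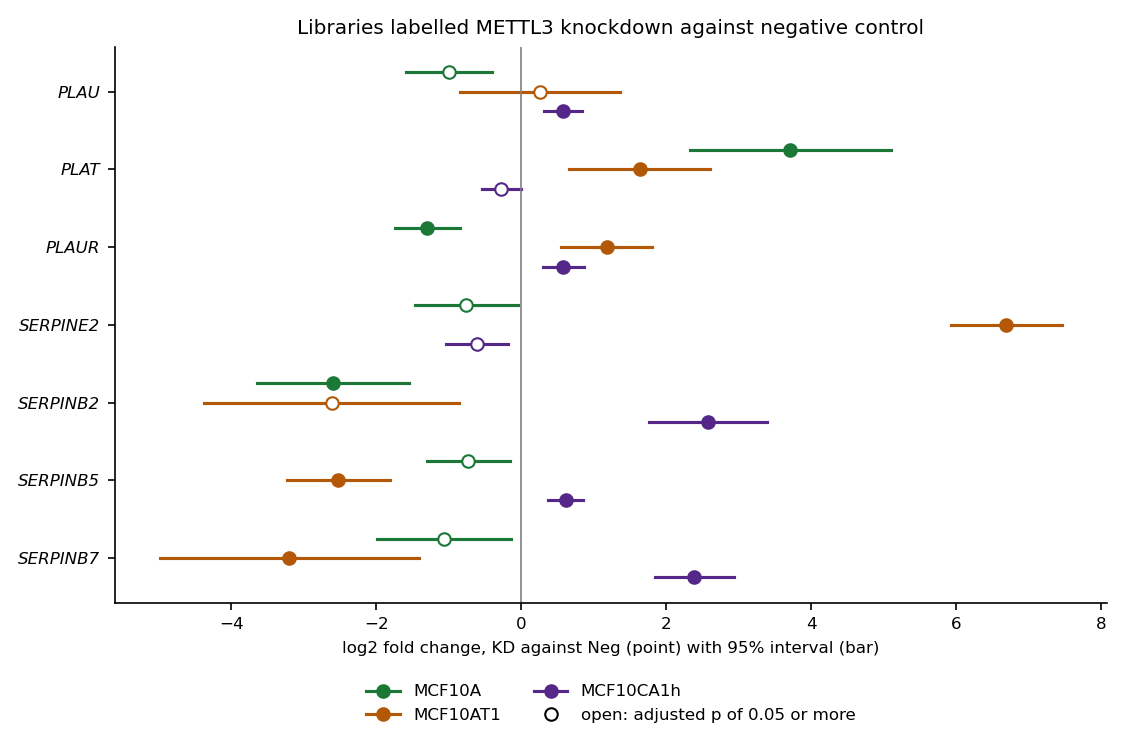
Log2 fold change of KD against Neg (x axis; point) with its 95% interval (bar) for the 7 genes in each line, from limma fits of 3 against 3 libraries, with open points where the adjusted p was 0.05 or more. SERPINE2 in MCF10AT1 stands at 6.69, and the clade B serpins lie to the left of 0 in MCF10A and MCF10AT1 and to the right in MCF10CA1h.

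In MCF10CA1h the epithelial markers were higher in 5 of 10 cases in KD and lower in none, with sums of 350243 to 381372 in Neg and 485188 to 534735 in KD. KRT14 (2.15 on the log2 scale), LAMB3 (1.43) and KRT17 (0.71) were among them. Of the 8 fibroblast and mesenchymal markers tested, 2 were higher and 1 lower, with sums of 24964 to 30643 and 30903 to 38534. In MCF10A, 1 of 10 epithelial markers was higher in KD (KRT5, 0.90) and none of 4 mesenchymal markers passed (4 at an unadjusted p under 0.05), with sums of 10113 to 16748 and 6383 to 12042. In MCF10A the endothelial markers summed to 56.1 to 237 in Neg and 339 to 536 in KD, and the blood cell markers to 751 to 2115 in Neg and 290 to 546 in KD, both without overlap. Of the first 0 of 3 tested passed (3 at an unadjusted p under 0.05) and of the second 0 of 2 (2 at an unadjusted p under 0.05). In MCF10CA1h the endothelial sums were 101 to 140 in Neg and 46.1 to 77.3 in KD, without overlap (1 of 2 passed, lower), and the blood cell sums 839 to 955 and 740 to 986, with overlap (1 higher and 1 lower of 2). Of all genes, 2.65% passed in MCF10A KD and 12.8% in MCF10CA1h KD. The part of the markers in the differences of the plasminogen genes was not tested in either line.

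Whether the KD difference itself differed between lines was tested in a fit of all 18 libraries. That fit takes a single spread per gene for all groups, although the lines differ in spread. For KD against Neg, such a joint fit moved the share of all genes called from 13.0% to 32.4% in MCF10AT1. In MCF10CA1h it moved from 12.8% to 1.56%, and in MCF10A from 2.65% to 3.84%. The adjusted p-values of these contrasts therefore depend on the pooling. Between MCF10AT1 and MCF10A, 5 of the 7 genes differed (SERPINE2 and PLAUR upward, PLAT, SERPINB5 and SERPINB7 downward), against 21.6% of 15897 genes (11.2% upward and 10.5% downward). Between MCF10CA1h and MCF10A, 5 differed as well (SERPINB2, SERPINB7, PLAUR and SERPINB5 upward, PLAT downward), against 5.34% of genes (3.65% upward and 1.69% downward). Between MCF10CA1h and MCF10AT1, 4 differed (SERPINB7, SERPINB2 and SERPINB5 upward, SERPINE2 downward), against 18.2% (9.67% upward and 8.51% downward). Without MCF10AT1 Neg library c, 4 differed between MCF10AT1 and MCF10A against 21.7% of genes, where PLAT no longer passed (-1.80, adjusted p = 0.0987), and 5 between MCF10CA1h and MCF10AT1 against 18.3%, where PLAT came in at the threshold (-2.19, adjusted p = 0.05). The difference of PLAU was not shown to differ between any pair of lines (adjusted p = 0.0959, 0.0961 and 0.732). Each line's libraries enter 2 of these 3 contrasts.

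The rest of the plasminogen system was read from a list of 20 further genes, of which 14 were tested in MCF10A and 15 in each of the other lines. In MCF10A KD 1 was higher and none lower. It was MRC2, a collagen receptor that also binds the complex of urokinase and its receptor, with 91.2 to 248 in Neg and 974 to 2312 in KD (log2 fold change 3.17, SE 0.43, adjusted p = 0.0139). In MCF10AT1 KD 3 were higher and 2 lower. MRC2 rose there too (3.37, adjusted p = 3.7e-04), with CTSB, the protease cathepsin B (1.98, adjusted p = 0.00688), and LRP1, which clears protease and inhibitor complexes. ST14 (matriptase, -3.55, adjusted p = 2.0e-04) and its inhibitor SPINT1 fell. All 5 passed in the same direction without Neg library c. In MCF10CA1h KD 3 were higher and 1 lower: CTSB (1.07, adjusted p = 1.6e-04) and the plasminogen-binding pair ANXA2 (0.69, adjusted p = 1.0e-03) and S100A10 (0.53, adjusted p = 0.00506) rose, and MRC2 fell. The medians of the list in the 3 lines were 0.16, 0.34 and 0.09, against 0.00, 0.02 and -0.02 over all genes. Of all genes, 2.65%, 13.0% and 12.8% passed in MCF10A, MCF10AT1 and MCF10CA1h KD.

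**Figure D4:**
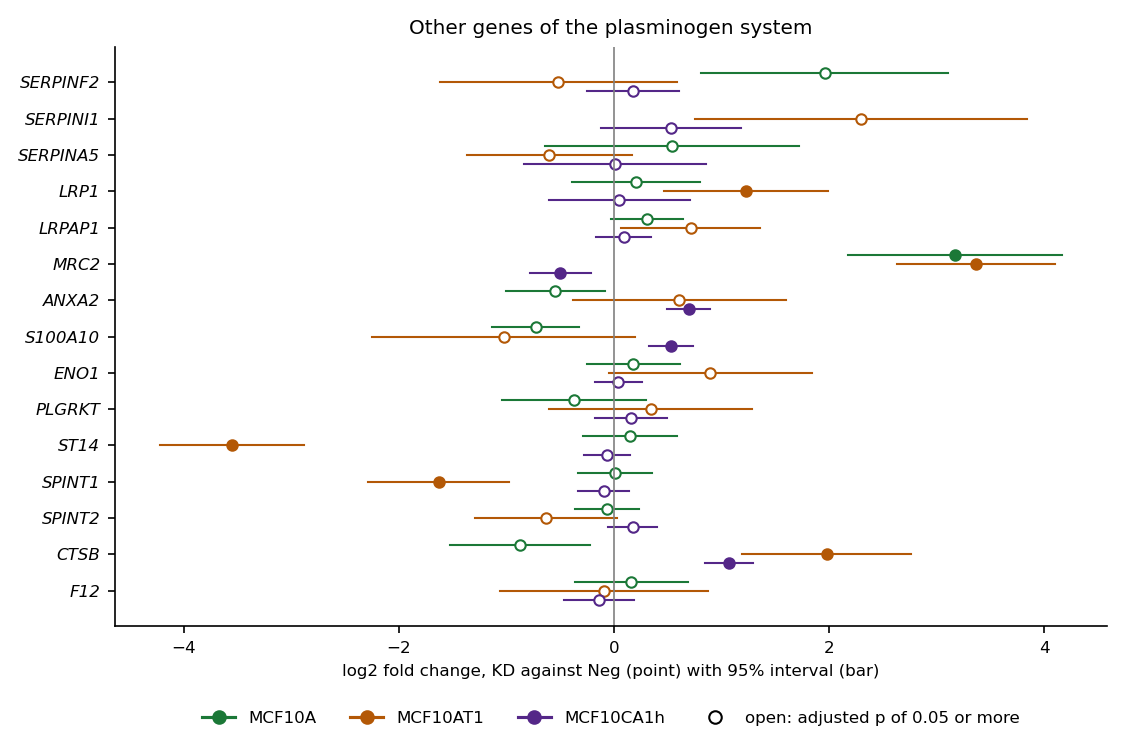
Log2 fold change of KD against Neg (x axis; point) with its 95% interval (bar) for the genes of this list that were tested, in each line, with open points where the adjusted p was 0.05 or more. MRC2 lies at 3.17 in MCF10A and 3.37 in MCF10AT1 and at -0.50 in MCF10CA1h, and ST14 at -3.55 in MCF10AT1.

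Of the same list, 9 of 15 differed between MCF10AT1 Neg and MCF10A Neg, 6 higher and 3 lower, against 28.1% of all genes. Between MCF10CA1h Neg and MCF10A Neg 8 differed, 6 higher and 2 lower, against 37.8%. SERPINF2 (antiplasmin) was higher in both, by log2 fold changes of 2.43 (adjusted p = 0.00476) and 4.03 (adjusted p = 2.1e-04). CTSB was lower in both, by -1.89 (adjusted p = 0.00222) and -1.85 (adjusted p = 0.00112). Between MCF10CA1h and MCF10AT1, 2 of 15 were higher and 1 lower, which is near the share of all genes (21.8%). The 1 lower was SERPINA5 (protein C inhibitor, -4.82, adjusted p = 6.1e-04). Without MCF10AT1 Neg library c the counts were 7 higher and 2 lower against MCF10A, where 52.1% of all genes passed. Between MCF10CA1h and MCF10AT1 they were then 2 higher and 2 lower, against 35.8%. SERPINF2, CTSB and SERPINA5 passed as before.

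Of the other clade B serpins of the chromosome 18 cluster, 6 were in the table and few were expressed enough to test. None of 4 passed in MCF10A KD (1 at an unadjusted p under 0.05), the 1 tested in MCF10AT1 KD did not pass (0 at an unadjusted p under 0.05), and 1 of 4 was higher in MCF10CA1h KD, SERPINB8 (log2 fold change 0.78, adjusted p = 0.00306). Of the clade B serpins of chromosome 6, 2 were tested. SERPINB1, an inhibitor of neutrophil proteases, was lower in KD in MCF10A (-2.17, adjusted p = 0.0275) and MCF10AT1 (-1.62, adjusted p = 0.0055, and -1.68 without Neg library c, adjusted p = 0.00946) and higher in MCF10CA1h (1.33, adjusted p = 1.9e-04). SERPINB6 was lower in MCF10A alone among the 3 fits (-0.69, adjusted p = 0.0472). Of the LYPD genes, which encode relatives of the urokinase receptor, 0 of 2 passed in MCF10A (1 at an unadjusted p under 0.05), 1 of 2 was higher in MCF10AT1 (none without Neg library c, with 2 at an unadjusted p under 0.05) and 1 of 3 was higher in MCF10CA1h, LYPD3 (0.56, adjusted p = 0.00601). The shares of all genes in these 3 fits were 2.65%, 13.0% and 12.8%.

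Genes of the factors that bind AP-1 and ETS motifs were read as a further list. No ETS motif was searched for in the promoter windows. Of 11 such genes, 0 passed in MCF10A KD (3 at an unadjusted p under 0.05). In MCF10AT1 KD, FOS (log2 fold change -2.55, adjusted p = 0.0174), FOSB (-2.50, adjusted p = 0.00877) and JUN (-2.26, adjusted p = 0.00822) were lower and ETV4 was higher. Without Neg library c the first 3 passed again, and ETV4 did not (adjusted p = 0.0717). ETV5 then passed as higher (1.16, adjusted p = 0.0439). In MCF10CA1h KD, ETS1 was higher (0.78, adjusted p = 0.0437) and ETV4 lower (-0.36, adjusted p = 0.0416). The shares of all genes that passed were 2.65%, 13.0% and 12.8% in MCF10A, MCF10AT1 and MCF10CA1h KD. The part of these 11 factors in the levels of the plasminogen genes was not tested.

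For each of the 7 genes, the genes with the most similar profile over the 18 libraries were found among 12452 genes with a mean of at least 50, as the smallest root-mean-square difference in log2 value after each profile was centered on its mean. The nearest to SERPINB5 was SNAI2, a transcription factor of the SNAI family, at 0.31, where SERPINB5 itself varied by 1.88 about its mean, followed by CCNG2 and SLC31A2. The nearest to PLAUR was EHBP1L1 (0.29 against 0.57), followed by STK10 and PPP1R18, and to PLAU HOMER3 (0.37 against 0.59), PTK2B and CD99. SERPINE2 was closest to ABCA13 (0.65 against 2.05), FGFR1 and ZCCHC24, and SERPINB7 to PMEPA1 (0.70 against 1.88) and PLCXD2. PLAT was closest to KLRK1-AS1 (0.78 against 1.69), IFNLR1 and GSDMD, and SERPINB2 to IL1A (interleukin 1 alpha, 0.92 against 3.03), SLCO1B3 and SPRR2A. These points share the differences between lines and clones, so the values are descriptions of these libraries.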

How the data were processed

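RNA of the 18 libraries was sequenced from both ends. Per the labels and methods the authors pseudo-aligned the reads with kallisto 0.46.1, brought them to gene level through tximport and scaled them by DESeq2 1.26.0 in R 4.1.1 (hg38). The annotation release is not given in the sources used here. The protocol names ribosomal RNA depletion and the labels polyA RNA, which was not settled. The deposited values are these normalized counts, a signal and not reads. Between 12.2% and 42.5% of low values lay at whole multiples of the most frequent one, so reads were not recovered. A further 24646 genes had no values and 39 genes no symbol.

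Differences were computed with limma 3.58.1 (lmFit and eBayes with trend, R 4.3.3) on log2(value + 1), keeping genes whose mean in the fitted libraries reached 10, with Benjamini-Hochberg adjustment over all of them and a two-sided threshold of 0.05. A fold change on this scale understates that of low genes. Each line was fitted alone (6 libraries), the Neg groups in a fit of their own, and differences between lines in a fit of 18. The procedure was tested on simulated data. The members and lists were chosen with earlier results of these data known. The text names every member, METTL3, for each list at most 3 genes past the threshold per comparison with their values (largest change first, mean of at least 50), and at most 3 genes most alike to each member. Some results, 1 gene of the list of the plasminogen system among them, are not reported here, and its counts leave that gene out. Any other gene was named after its values were seen.

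Deviations from the group means of same-letter libraries correlated at 0.221, 0.200 and 0.116 in MCF10A and at 0.110, 0.289 and 0.477 in MCF10AT1, which was taken as pairing, and at -0.01, 0.02 and 0.05 in MCF10CA1h, which was not. Alternatives were pseudocounts of 0.5 and 5, no filter, a mean of at least 50, no trend, rescaling by median of ratios or to equal sums, the replicate block, a joint fit of 18 libraries, and each library left out. Gene positions and transcript lengths come from GENCODE on hg38 and promoters from RefSeq. Python 3.11.15 and pandas 2.3.3 gave the remaining values.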

Additional observations from a re-analysis of the deposited data

Results flagged for a closer look

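The KD difference of 14 gene and line pairs differed between lines by the interaction contrast of limma in the fit of 18 libraries. Values are the difference between the 2 log2 fold changes, with the adjusted p over all genes. The fit pools the spread of lines that differ in spread, and the adjusted p depends on this. For SERPINB7 in MCF10AT1 minus MCF10A the SE was 0.62, below the 0.78 of its KD difference in MCF10AT1 fitted alone. SERPINE2 had the largest, 7.45 for MCF10AT1 minus MCF10A (adjusted p = 6.7e-09) and -7.31 for MCF10CA1h minus MCF10AT1 (adjusted p = 1.2e-08). For PLAUR the KD difference was below 0 in MCF10A and above 0 in the other lines, which gave 2.47 for MCF10AT1 minus MCF10A (adjusted p = 1.1e-05) and 1.88 for MCF10CA1h minus MCF10A (adjusted p = 9.7e-04). PLAT had -2.08 (adjusted p = 0.0471) and -3.99 (adjusted p = 0.00327) in the same contrasts. The first of these passed in 2 of 12 fits with 1 library left out (-2.83 to -1.47, adjusted p from 0.00115 to 0.121) and was lost without the filter (adjusted p = 0.0651) or the intensity trend (adjusted p = 0.0656), while the second passed in all 12.

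For the clade B serpins in MCF10CA1h minus MCF10A the values were 5.17 for SERPINB2 (adjusted p = 0.00126), 3.46 for SERPINB7 (adjusted p = 0.0036) and 1.34 for SERPINB5 (adjusted p = 0.031). The SERPINB5 call held in 2 of 12 fits with 1 library left out (1.16 to 1.59, adjusted p from 0.00776 to 0.098) and was lost without the filter (adjusted p = 0.0518), without the trend (adjusted p = 0.0513) and with equal sums (1.19, adjusted p = 0.122). For MCF10CA1h minus MCF10AT1 they were 5.19 for SERPINB2 (adjusted p = 2.4e-04), 5.59 for SERPINB7 (adjusted p = 7.0e-06) and 3.14 for SERPINB5 (adjusted p = 5.3e-06). For MCF10AT1 minus MCF10A they were -2.13 for SERPINB7 (adjusted p = 0.0213) and -1.80 for SERPINB5 (adjusted p = 0.00116). The SERPINB7 value was -0.94 with a pseudocount of 5 (adjusted p = 0.131), and its call was also lost without the filter (adjusted p = 0.0563) and without MCF10A Neg library c (adjusted p = 0.0605) or KD library c (adjusted p = 0.0532). SERPINB2 had -0.01 there, with a 95% interval from -1.74 to 1.72. Without MCF10AT1 Neg library c the values for MCF10AT1 minus MCF10A were 7.73 for SERPINE2, 2.41 for PLAUR, -1.57 for SERPINB5 and -2.01 for SERPINB7 (adjusted p = 0.0426), all past the threshold, and -1.80 for PLAT, which was not (adjusted p = 0.0987). Those for MCF10CA1h minus MCF10AT1 were -7.59 for SERPINE2, 4.60 for SERPINB2, 2.91 for SERPINB5 and 5.47 for SERPINB7, all past the threshold. No cause of these differences was tested, and each group is a single clonal line.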

How the results depend on the processing

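Reads per gene are unknown, which limits SERPINB7 and SERPINB2 in MCF10AT1 most. Of the values of single members, 501 of 537 kept direction and side of the threshold under the settings that kept all libraries, 22 lost the call, 12 gained one and 2 turned (SERPINB2, MCF10AT1 minus MCF10A, 0.64 with a pseudocount of 5; SERPINE2, MCF10CA1h minus MCF10A, -0.0037 with equal sums). The filter, the trend, the block and the joint fit leave the log2 fold change as it was. Only the pseudocounts and the rescalings could therefore turn a direction. Of members called, MCF10A KD had 0 without the intensity trend (against 1.54% of all genes) and 6 with the replicate block (7.6%). MCF10CA1h KD had 2 without the trend (7.42%) and 2 in the joint fit (1.56%). MCF10AT1 minus MCF10A had 3 without the filter (9.29%). The letters were not taken as pairing MCF10CA1h, where the block gave 6 (against 12.4% of all genes), with SERPINE2 added (adjusted p = 0.0149). Across lines the block ended the call of SERPINB7 between MCF10AT1 Neg and MCF10A Neg (adjusted p = 0.0503) and made one of PLAT for MCF10CA1h minus MCF10AT1 (-1.91, adjusted p = 0.0454). It changed no other call beyond those given in the report. The cause was not tested.

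With equal sums, the median of all genes moved from 0.02 to -0.15 in MCF10AT1 KD, from -0.01 to -0.15 between MCF10AT1 Neg and MCF10A Neg, from 0.05 to 0.16 between MCF10CA1h Neg and MCF10AT1 Neg, from 0.00 to -0.26 for MCF10AT1 minus MCF10A and from -0.03 to -0.17 for MCF10CA1h minus MCF10A. The share of called genes that were higher moved from 62.0% to 50.2% in MCF10CA1h KD and from 51.6% to 39.6% for MCF10AT1 minus MCF10A.

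With each library left out, members called are given with the share of all genes called. They ranged from 0 to 4 in MCF10A KD (0.337% to 9.2%) and 2 to 4 in MCF10AT1 KD (6.35% to 15.2%). In MCF10CA1h KD they ranged from 4 to 6 (7.2% to 11.8%). Against MCF10A Neg they were 5 to 6 for MCF10AT1 Neg (10.6% to 52.1%) and 5 to 5 for MCF10CA1h Neg (23.4% to 36.5%). For MCF10CA1h Neg against MCF10AT1 Neg they were 1 (without MCF10CA1h Neg a) to 4 (10.2% to 35.8%). For MCF10AT1 minus MCF10A they were 3 (without MCF10A Neg c, 18.6%, or KD c, 18.1%) to 5, against 21.6% with all libraries. They were 4 to 5 for MCF10CA1h minus MCF10A (2.96% to 6.87%) and 4 to 5 for MCF10CA1h minus MCF10AT1 (13.4% to 26.5%). The lowest count and the lowest share need not come from the same fit. A change in count cannot be read apart from the share. Of single values 429 of 501 were kept, 49 lost and 10 gained a call, and 13 turned: PLAU in MCF10AT1 KD (-0.069 to 0.84), SERPINE2 between MCF10CA1h Neg and MCF10A Neg (-0.071 to 0.40), SERPINB2 for MCF10AT1 minus MCF10A (-0.47 to 0.57), SERPINE2 for MCF10CA1h minus MCF10A (-0.16 to 0.40) and PLAU for MCF10CA1h minus MCF10AT1 (-0.27 to 0.64).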
